A study of Mus musculus with 15 samples.

Results

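The insulin-like growth factor (IGF) axis was followed at the transcript level in mouse embryonic fibroblasts (MEFs). Its 10 genes were chosen by symbol: the ligands Igf1 and Igf2, the receptors Igf1r and Igf2r, and the binding proteins Igfbp2, Igfbp3, Igfbp4, Igfbp5, Igfbp6 and Igfbp7. They are 10 of the 54495 genes in the deposited table, and each was found once. MEFs are primary connective tissue cells grown from embryos, here from day 13.5 of gestation, in DMEM plus 10% fetal bovine serum, and held at 37 °C with 3% O2 and 5% CO2. Every embryo lacked mTR (mTR-/-, the telomerase RNA gene Terc) and Wrn (Wrn-/-, the RecQ helicase gene mutated in Werner syndrome), so no group has an intact telomerase or Wrn gene. The groups called DM (double mutant, mTR-/-Wrn-/-p53WT) carried wild-type p53, and those called TM (mTR-/-Wrn-/-p53N236S/N236S) were homozygous for the p53 change N236S. G1, G3 and G5 give the generation bred without telomerase RNA. G1DM, G1TM and G3DM had 2 libraries and the other groups 3, which makes 15 of polyA RNA, and the labels do not say whether the libraries of a group came from separate embryos or cultures. The p-values below therefore measure the spread between these libraries, which may be technical. The series asks how the p53 change alters the ageing traits of these mice. Its wild-type and p53-mutant control MEFs are not analysed here.

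IGF1 and IGF2 are secreted hormones that bind the tyrosine kinase receptor IGF1R, which signals through insulin receptor substrates, PI3 kinase and AKT to growth, protein synthesis and survival. IGF2R, the cation-independent mannose 6-phosphate receptor, takes up IGF2 and delivers it to lysosomes, and so acts as a sink for the ligand while also sorting lysosomal enzymes. The binding proteins hold IGFs in the fluid around the cell and are cut by proteases such as PAPP-A, which frees the ligand. In the mouse embryo Igf2 is expressed from the paternal and Igf2r from the maternal allele. Wild-type p53 is known to act on several genes of the axis, among them Igfbp3.

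The table lists the genes as follows, on coordinates that equal GENCODE vM21 (GRCm38) for 98.2% of all its identifiers. Igf1 (ENSMUSG00000020053) lies on chromosome 10 from 87858265 to 87937042, Igf2 (ENSMUSG00000048583) on chromosome 7 from 142650766 to 142666816, Igf1r (ENSMUSG00000005533) on chromosome 7 from 67952827 to 68233668, and Igf2r (ENSMUSG00000023830) on chromosome 17 from 12682406 to 12769664. Igfbp2 (ENSMUSG00000039323) and Igfbp5 (ENSMUSG00000026185) are neighbours on chromosome 1, from 72824503 to 72852474 on the plus strand and from 72857932 to 72874884 on the minus strand, so their 3′ ends face each other. Igfbp3 (ENSMUSG00000020427) and Igfbp4 (ENSMUSG00000017493) lie on chromosome 11, from 7206086 to 7213923 and from 99041244 to 99054392. Igfbp6 (ENSMUSG00000023046) lies on chromosome 15 from 102144362 to 102149511, and Igfbp7 (ENSMUSG00000036256) on chromosome 5 from 77349240 to 77408041. The listed gene lengths run from 1112 bases for Igfbp6 and 1209 for Igfbp7 to 9308 for Igf2r, 9904 for Igf1 and 16791 for Igf1r, which matters for a length trend described below.

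Promoters are shown for Igf2r and Igf1r, whose transcripts were both lower in the later p53-mutant groups, and for Igfbp6, which was higher there. They are windows of 300 bases around the annotated start from RefSeq (GRCm38.p6), written 5′ to 3′ on the strand of the gene, at chr17:12769657-12769956 (minus), chr7:67952007-67952306 (plus) and chr15:102143936-102144235 (plus). The Igf1r and Igfbp6 windows end before the starts listed for these genes above, 67952827 and 102144362, and so do not hold those starts. Capitals mark matches on either strand to a GC box, TATA box, CCAAT box or E-box, whose letters are given after the windows.
Igf2r: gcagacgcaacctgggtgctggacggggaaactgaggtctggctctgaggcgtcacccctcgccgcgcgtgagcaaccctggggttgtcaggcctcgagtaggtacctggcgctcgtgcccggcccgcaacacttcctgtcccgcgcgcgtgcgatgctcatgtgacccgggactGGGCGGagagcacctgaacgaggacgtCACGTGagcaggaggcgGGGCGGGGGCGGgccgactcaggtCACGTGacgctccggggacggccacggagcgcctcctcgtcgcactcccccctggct
Igf1r: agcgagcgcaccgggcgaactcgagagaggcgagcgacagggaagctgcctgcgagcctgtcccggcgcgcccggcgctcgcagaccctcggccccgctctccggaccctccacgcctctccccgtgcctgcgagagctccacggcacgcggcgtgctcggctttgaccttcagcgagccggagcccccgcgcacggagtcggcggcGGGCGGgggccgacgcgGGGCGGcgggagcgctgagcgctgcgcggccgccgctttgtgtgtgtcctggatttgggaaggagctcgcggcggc
Igfbp6: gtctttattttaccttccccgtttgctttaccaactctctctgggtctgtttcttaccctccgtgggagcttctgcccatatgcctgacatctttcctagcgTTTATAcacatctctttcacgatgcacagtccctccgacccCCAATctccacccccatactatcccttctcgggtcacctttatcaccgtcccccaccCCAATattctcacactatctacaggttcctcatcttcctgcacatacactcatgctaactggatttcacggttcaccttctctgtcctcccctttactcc
The Igf2r window is 70.7% G and C and holds 3 GC boxes and 2 E-boxes. The Igf1r window is 76% G and C and holds 2 GC boxes. The Igfbp6 window is 49.7% G and C, near the median of 52.7% over all promoters, and holds 1 TATA box and 2 CCAAT boxes but no GC box. The GC box searched was GGGCGG, which 35.7% of all 32851 promoters in the table hold. The TATA box was TATAAA, held by 13.6%. The CCAAT box is spelled by its name and was held by 37.4%. The E-box was CACGTG, held by 7.15%. Overlapping matches were merged in the capitals. All 10 genes had an entry, with 14 windows in all. The p53 response element, which 0.0731% of all promoters hold, was matched in 0 of the 14, and its half-site, which 8.36% hold, in 1. These are matches of letters in short windows, and p53 elements often lie outside them.

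Levels are deposited FPKM, that is fragments relative to the gene's length and to the size of the library. Recovered reads totalled 17448588 to 29571111 per library, and the 10 genes drew from 37 reads (Igf1) to 36703 reads (Igf2r) in a library. The p53 genotype showed in Cdkn1a, a p53 target that encodes the cell cycle inhibitor p21, which was 4.22 to 29.6 FPKM in the 8 TM libraries and 86.2 to 216 FPKM in the 7 DM libraries. Outside the axis, the 6 libraries of G3TM and G5TM formed a set of their own: the mitochondrial ribosomal RNA mt-Rnr2 ran from 44.7 to 73.6 FPKM there against 1.48 to 3.76 in the other 9, and the ribosomal protein gene Rpl12 from 300.4 to 610 against 3.84 to 6.77. TM against DM in G3, in G5 and as the mean of generations, G3TM and G5TM against G1TM, and both interactions cross that division, and genotype and division cannot be told apart in G3 and G5. The G1 comparison of genotypes and those within DM do not cross it. In G3 both DM libraries expressed Xist above the Y-linked genes and all 3 TM libraries the reverse, and sex and genotype in that generation cannot be told apart.

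Igfbp7, Igfbp4, Igfbp2 and Igfbp6 had the highest median levels of the axis. Over the 15 libraries the median was 279 FPKM for Igfbp7, 136 for Igfbp4, 118 for Igfbp2, 83.6 for Igfbp6, 56.6 for Igfbp5 and 27.1 for Igfbp3. Igf2r had a median of 63.8 FPKM, Igf2 of 27.2 and Igf1r of 18.3. Igf1 was the scarcest, with a median of 0.774 FPKM, so these fibroblasts held far more Igf2 than Igf1 transcript per length. Igf2 divided by Igf1 was 5.49 to 34.9 in the 7 DM libraries, 18.2 and 29.7 in G1TM, and 36.5 to 119 in the 6 libraries of G3TM and G5TM.

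**Figure D1:**
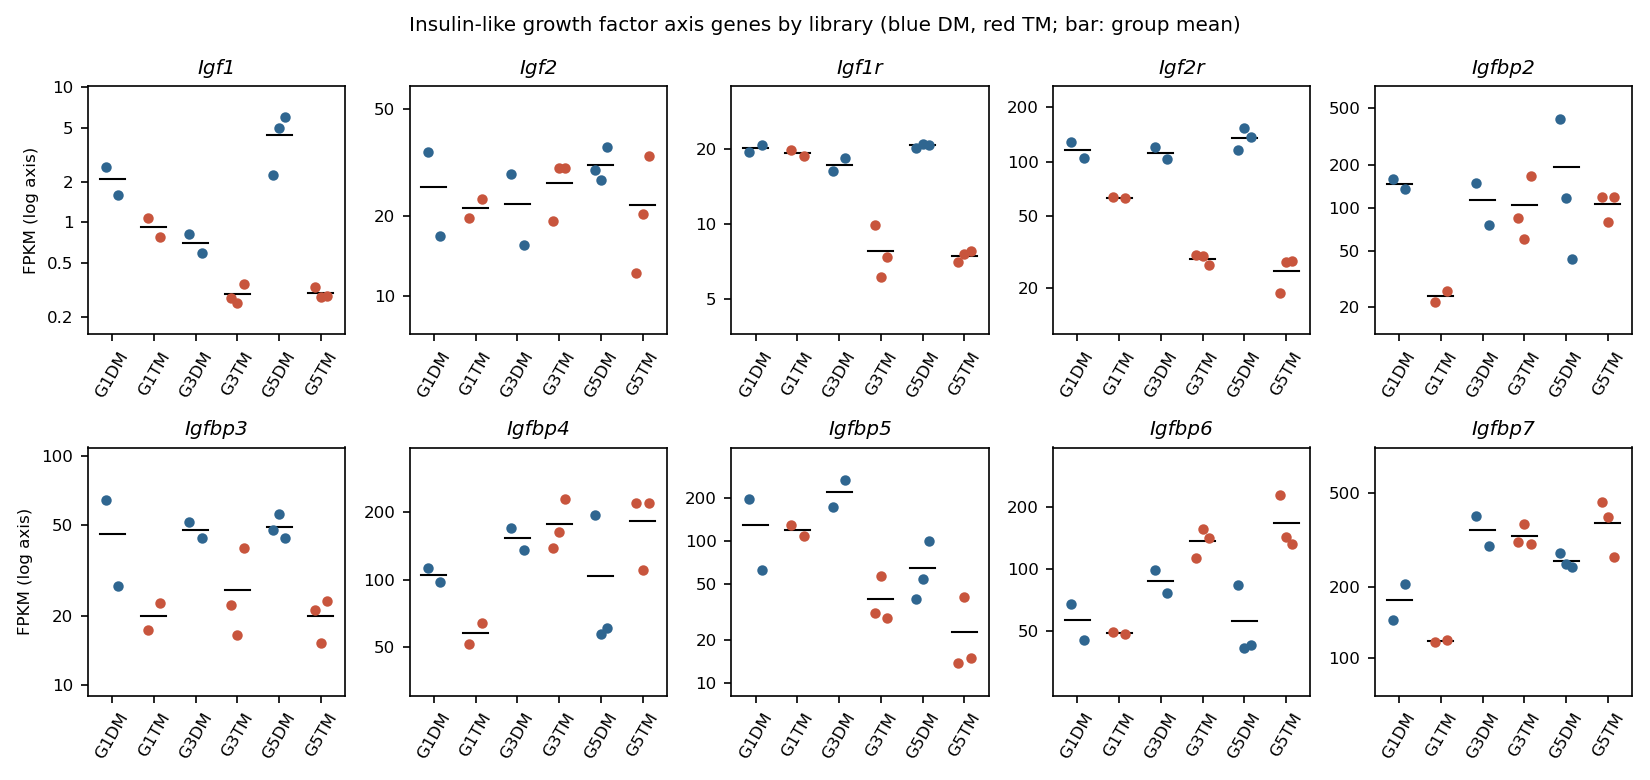
FPKM (log axis) of each of the 10 genes in each library, by group, with DM in blue, TM in red and a bar at the group mean. Every TM library (8) is below every DM library (7) for Igf2r, and Igf1r is at 16.2 to 20.9 FPKM in every library outside G3TM and G5TM and at 6.15 to 9.90 FPKM within them.

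The test was a linear model on log2(FPKM + 1) fitted with limma over 13562 genes with at least 1 FPKM in at least 2 libraries. A gene passed at an adjusted p under 0.05, and differences are log2(FPKM + 1) with their standard error (SE). All 10 genes were tested, 9 with 1 FPKM or more in all 15 libraries. Igf1 reached 1 FPKM in 6 libraries, 5 of them DM, so it entered largely through the groups in which it was high.

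Between the p53 genotypes, the receptors and Igfbp5 were lower in the p53 mutant in the later generations. In G1, 0 of the 10 genes passed, where 1.17% of all tested genes did (0.811% lower and 0.361% higher), and 4 of the 10 had an unadjusted p under 0.05. In G3, 3 of 10 passed, all lower in TM, beside 32.0% of all tested genes in either direction, 13.9% lower and 18.0% higher. In G5, 6 of 10 passed, 5 lower and 1 higher, beside 58.7% of all genes, 28.4% lower and 30.3% higher. As the mean of the 3 generations, 7 of 10 passed, 6 lower and 1 higher, beside 54.1% of all genes, 25.1% lower and 29.0% higher. The shares of the axis that passed in G3 and G5 were thus close to those of all genes. By libraries that did not overlap, 6 genes were lower in TM in G1 and 4 overlapped, beside 23.0% of all tested genes lower and 49.4% apart in either direction. In G3, 5 were lower and 1 higher, beside 28.2% lower, 31.6% higher and 59.8% in either direction. In G5, 4 were lower and 1 higher, beside 28.3%, 29.6% and 58.0%. The median difference of the 10 genes was −0.61 in G1, −0.28 in G3, −0.92 in G5 and −0.92 in the mean, beside 0.02, 0.01, 0.02 and 0.00 over all tested genes. Fewer cells of a type and less RNA per cell cannot be told apart in these bulk cultures.

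**Figure D2:**
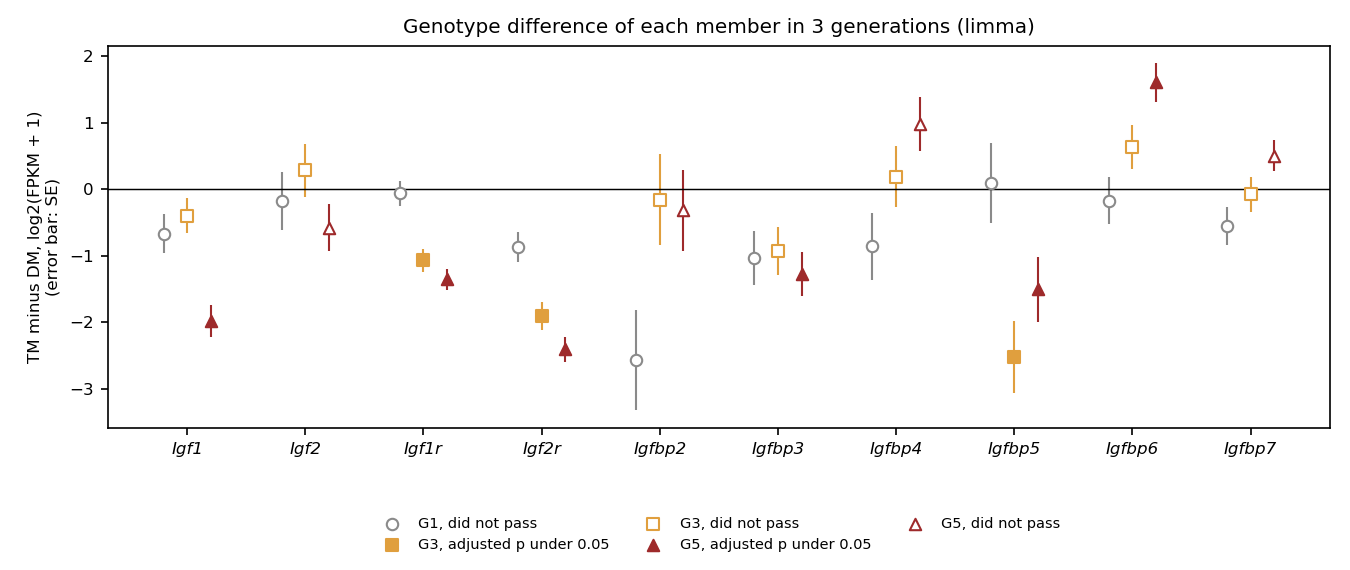
TM minus DM on the log2(FPKM + 1) scale, with its SE, for each gene in G1 (circles), G3 (squares) and G5 (triangles), where filled symbols passed at an adjusted p under 0.05 (limma). No G1 symbol is filled, and in G5 the filled symbols are Igf1, Igf1r, Igf2r, Igfbp3 and Igfbp5 below 0 and Igfbp6 above it.

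Igf2r separated the genotypes in every generation. The DM levels were 129 and 105 FPKM in G1, 120 and 104 in G3, and 117, 154 and 137 in G5. The TM levels were 63.8 and 62.8 FPKM in G1, 30.5, 30.3 and 27.0 in G3, and 18.96, 28.1 and 28.3 in G5. The 8 TM libraries all lay below the 7 DM libraries, as 3.81% of all tested genes did (3.86% lay above and 7.68% either way), and Igf2r is the 1 gene of the axis with no overlap. The mean was 1.85-fold lower in TM in G1, 3.83-fold lower in G3 and 5.42-fold lower in G5. The differences were −1.90 ± 0.21 in G3 (SE, adjusted p = 7.41e-05, limma) and −2.40 ± 0.19 in G5 (adjusted p = 2.83e-06, limma), and both passed in all 26 alternative fits. In G1 the difference of −0.87 ± 0.23 did not pass (adjusted p = 0.0899, limma, range over 27 alternatives 0.0129 to 0.536), although both TM libraries were below both DM libraries. Within TM, Igf2r was lower in G3 than in G1 by −1.09 ± 0.21 (adjusted p = 0.00227, limma) and in G5 than in G1 by −1.32 ± 0.21 (adjusted p = 0.000549, limma), and these 2 comparisons share the G1TM libraries. Within DM no pair of generations passed, with differences of −0.06 ± 0.23, 0.21 ± 0.21 and 0.27 ± 0.21 for G3 against G1, G5 against G1 and G5 against G3 (SE). The antisense transcript Airn, which starts inside Igf2r and silences the paternal allele in the embryo, ran from 0.304 to 4.55 FPKM in DM, with 0.221 to 1.36 in TM. Airn passed as lower in TM in G5 (−1.34 ± 0.30, adjusted p = 0.00257, limma), and whether the authors' counting used strand is not given in the sources used here. Airn stayed below 1 FPKM in every library of G3DM, G3TM and G5TM. It thus met the filter only through groups in which it was high, G5DM among them, which limits this call.

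Igf1r, the signalling receptor, had a different pattern from Igf2r in G1. G1DM had 19.5 and 20.7 FPKM, which overlap the 19.7 and 18.6 of G1TM. G3DM had 16.2 and 18.3 FPKM and G5DM 20.1, 20.9 and 20.8. All 9 of these libraries thus lay within a narrow band. G3TM had 9.90, 6.15 and 7.40 FPKM and G5TM 7.03, 7.57 and 7.79, all below that band, as 9.63% of all tested genes were lower in the 6 without overlap. The difference was −0.06 ± 0.19 in G1 (SE, adjusted p = 0.973, limma), −1.07 ± 0.18 in G3 (adjusted p = 0.000914, limma) and −1.35 ± 0.16 in G5 (adjusted p = 3.97e-05, limma). The G3 and G5 calls passed in all 26 alternative fits. The group mean was 2.21-fold lower in TM in G3 and 2.76-fold lower in G5.

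Igf1 was low in every TM library of the later generations. G1DM had 2.57 and 1.60 FPKM and G1TM 1.08 and 0.774. In G3 it measured 0.821 and 0.591 FPKM in DM and 0.276, 0.254 and 0.352 in TM. In G5 it measured 2.23, 4.96 and 5.97 FPKM in DM and 0.334, 0.284 and 0.289 in TM. Within each generation TM lay below DM with no overlap, but G1TM replicate 1 lay above both G3DM libraries. The G5 difference passed at −1.98 ± 0.24 (SE, adjusted p = 5.01e-05, limma), with a mean 14.5-fold lower in TM. Because TM values are below the pseudocount of 1, this scale understates the change, and a pseudocount of 0.1 gave −3.37. The differences of −0.67 ± 0.29 in G1 and −0.40 ± 0.27 in G3 did not pass (adjusted p = 0.356 and 0.278, limma), and the G3 one passed in 3 of 26 alternatives, among them a pseudocount of 0.01 (adjusted p = 0.0444). The 6 libraries of G3TM and G5TM rest on 37 to 72 reads each, and the 7 DM libraries on 113 to 1702.

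Igf1 also moved between the generations of DM, where the division between libraries plays no part. Sex was not balanced there: both G3DM libraries expressed Xist above the Y-linked genes, and 2 of the 3 G5DM libraries the reverse. G5DM exceeded G3DM by 1.59 ± 0.27 (SE, adjusted p = 0.0129, limma), a 6.21-fold higher mean, and this was 1 of 10 genes of the axis to pass, beside 4.98% of all tested genes (3.35% higher and 1.64% lower). The call was lost once the length and GC trend described below was removed (0.84 ± 0.21, adjusted p = 0.0578, limma). That call rested on single libraries: it was lost without G3DM replicate 1 (adjusted p = 0.123), G3DM replicate 2 (0.125) or G5DM replicate 2 (0.0646), and in a fit of the 9 libraries alone (0.0856). In the same groups the summed level of 12 macrophage markers was 7.52 and 19.4 FPKM in G1DM, 22.1 and 23.9 in G3DM, and 56.1, 69.5 and 84.1 in G5DM, with Aif1 at 0 in both G3DM libraries and every marker above 0 somewhere in each other group. Macrophages are known to express Igf1. The part of such cells in the Igf1 difference was not tested. In TM, where Igf1 was lowest, that sum was 6.07, 72.8 and 426 FPKM in G3TM and 26.3, 31.6 and 123 in G5TM.

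Igf2, the main ligand of the embryo, did not pass in any of the 12 comparisons. It ranged from 12.2 to 36 FPKM over the 15 libraries. G1DM had 34.5 and 16.8 FPKM and G1TM 19.6 and 23.0. G3DM had 28.7 and 15.4 FPKM, G3TM 19.1, 30.2 and 30.2, G5DM 29.5, 27.2 and 36, and G5TM 12.2, 20.2 and 33.4. The ranges of neighbouring groups in the order of means overlapped throughout. The largest genotype difference was −0.58 ± 0.35 in G5 (SE, adjusted p = 0.174, limma). Its level relative to its sink receptor differed more: Igf2 divided by Igf2r was 0.148 to 0.267 in the 7 DM libraries, 0.307 and 0.366 in G1TM, and 0.626 to 1.18 in the 6 libraries of G3TM and G5TM, with no overlap between these sets. No test is given for this ratio, which follows mostly from Igf2r. H19, the noncoding RNA that shares the imprinted Igf2 locus, was far more abundant than Igf2, at 691 to 3138 FPKM. Myogenic cells are known to express Igf2, and Myog, a muscle differentiation factor, was 61.6 FPKM in G3TM replicate 2, 15.7 in G3TM replicate 3 and 11.0 in G5TM replicate 3, and at most 2.88 in the other 12 libraries.

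Of the binding proteins, Igfbp3 and Igfbp5 passed as lower in the p53 mutant in G5, and Igfbp5 also in G3. Igfbp3, the main carrier of IGFs in plasma and a p53 target, measured 63.8 and 27.1 FPKM in G1DM, 51.3 and 43.5 in G3DM, and 47.5, 55.8 and 43.7 in G5DM. In TM it measured 17.4 and 22.7 FPKM in G1, 22.2, 16.4 and 39.4 in G3, and 21.2, 15.2 and 23.3 in G5. TM lay below DM within each generation, and over all generations only G3TM replicate 3 lay above the lowest DM library, G1DM replicate 2. The difference was of like size in the 3 generations, at −1.03 ± 0.40 in G1 (SE, adjusted p = 0.275, limma), −0.93 ± 0.37 in G3 (adjusted p = 0.0695, limma) and −1.27 ± 0.33 in G5 (adjusted p = 0.00542, limma). Of these the G5 one passed, and the mean over generations passed at −1.08 ± 0.21 (adjusted p = 0.00104, limma). Neither interaction passed for Igfbp3, at 0.11 ± 0.54 and −0.24 ± 0.52 (SE). The G5 call was lost with array weights (adjusted p = 0.0563), and the mean was kept in all 25 alternatives.

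Igfbp5, a binding protein that attaches to extracellular matrix, had 197 and 62.5 FPKM in G1DM, with 130 and 108 in G1TM. In G3 it measured 174 and 268 FPKM in DM and 30.9, 56.6 and 28.7 in TM. In G5 it measured 39.2, 53.5 and 100.4 FPKM in DM and 13.8, 40.0 and 15.1 in TM. The genotypes were apart in G3, a 5.71-fold lower mean, and touched in G5, where the highest TM library was just above the lowest DM library. The differences passed in G3 (−2.52 ± 0.55, SE, adjusted p = 0.00434, limma) and G5 (−1.50 ± 0.49, adjusted p = 0.0181, limma), but not in G1 (0.09 ± 0.60). The G3 call was lost without G3DM replicate 2 (adjusted p = 0.0612), and the G5 call without G5DM replicate 3 (0.0854), G5TM replicate 1 (0.0777) or G5TM replicate 3 (0.0688). Within DM, Igfbp5 went from a mean of 221 FPKM in G3 to 64.4 in G5, which did not pass (−1.84 ± 0.55, adjusted p = 0.0663, limma). G3TM replicate 2, with the highest Myog, was the highest of its group for Igfbp5. G3TM replicate 3, with Myog at 15.7 FPKM, was the lowest (28.7 FPKM), and G5TM replicate 3, with Myog at 11.0 FPKM, had 15.1 FPKM of Igfbp5. The part of muscle cells in the Igfbp5 difference was not tested.

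Igfbp6, which prefers IGF2 over IGF1, was the 1 gene of the axis to pass as higher in the p53 mutant. In G1 the libraries overlapped, with 67.9 and 45.2 FPKM in DM against 49.7 and 48.6 in TM. G3DM had 98.8 and 76.7 FPKM and G5DM 83.6, 41.4 and 42.8. G3TM had 113, 157 and 142 FPKM and G5TM 228, 144 and 132. These 6 libraries all lay above the other 9, as 17.1% of all tested genes did. The difference was −0.17 ± 0.36 in G1 (SE, adjusted p = 0.952, limma), 0.64 ± 0.33 in G3 (adjusted p = 0.154, limma) and 1.60 ± 0.29 in G5 (adjusted p = 0.000659, limma). The G5 mean was 3-fold higher in TM. This call was kept in all 15 fits that left out a library and lost once the length and GC trend was removed (0.45 ± 0.21, adjusted p = 0.0864, limma).

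Igfbp2, Igfbp4 and Igfbp7 had their lowest group mean in G1TM. Igfbp2, a binding protein abundant in the embryo, measured 22.0 and 25.9 FPKM in G1TM against 159 and 135 in G1DM, a 6.14-fold lower mean. That difference of −2.57 ± 0.75 did not pass (SE, adjusted p = 0.126, limma). It passed in 5 of 27 alternatives, among them without G5DM replicate 1 (adjusted p = 0.0219), without G5DM replicate 3 (0.0432) and with only the groups compared (0.0274). G5DM, which shares the estimate of the spread, had 418, 118 and 44.0 FPKM of Igfbp2. In the other groups it was 150 and 75.1 FPKM in G3DM, 84.3, 60.5 and 167 in G3TM, and 120, 79.4 and 118 in G5TM. The mean over generations passed narrowly (−1.02 ± 0.40, adjusted p = 0.0438, limma) and was kept in 4 of the 15 fits that left out a library, with adjusted p up to 0.122.

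Igfbp4, a binding protein cut by PAPP-A, had 113 and 98.1 FPKM in G1DM, with 51.8 and 64.1 in G1TM. G3DM had 170 and 136 FPKM, G3TM 139, 162 and 228, G5DM 194, 57.6 and 60.8, and G5TM 220, 110 and 220. G5DM replicate 1 lay within the range of G3TM and G5TM, and the other 2 of its group lay below that range and near G1TM. The G5 difference of 0.98 ± 0.41 did not pass (SE, adjusted p = 0.054, limma), and it passed without G5DM replicate 1 (1.55, adjusted p = 0.000685) or G5TM replicate 2 (1.31, adjusted p = 0.0216). Igfbp7, a related secreted protein with weak affinity for IGFs, had 146 and 207 FPKM in G1DM, with 118 and 119 in G1TM. It was 400 and 298 FPKM in G3DM, 311, 370 and 304 in G3TM, 279, 252 and 245 in G5DM, and 460, 398 and 268 in G5TM. Igfbp7 did not pass between genotypes in any generation, with differences of −0.55 ± 0.28 in G1, −0.08 ± 0.26 in G3 and 0.50 ± 0.23 in G5 (SE). In G5 the sign turned with quantile normalization (−0.40) and with the length and GC trend removed (−0.56). With that trend removed, Igfbp7 passed as lower in TM in G3 (−0.74 ± 0.27, adjusted p = 0.0472, limma). It then also passed as lower in the mean over generations (−0.59 ± 0.16, adjusted p = 0.00645, limma).

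Within the p53 mutant, later generations differed from G1 in 7 of the 10 genes in G3, where 46.8% of all tested genes passed (25.2% higher and 21.6% lower), and in 7 in G5, where 49.5% did (26.0% higher and 23.5% lower). The comparisons share the G1TM libraries. Both G1TM libraries expressed Xist above the Y-linked genes and all 3 of G3TM the reverse, so sex and generation cannot be told apart in G3TM against G1TM, while 1 of the 3 G5TM libraries had more Y-linked signal. Igf1r, Igf2r and Igfbp5 were lower and Igfbp2, Igfbp4, Igfbp6 and Igfbp7 higher in each. For G5 against G1 the higher ones were Igfbp2 by 2.07 ± 0.68, Igfbp4 by 1.58 ± 0.46, Igfbp6 by 1.71 ± 0.33 and Igfbp7 by 1.62 ± 0.26 (SE; adjusted p = 0.0236, 0.0128, 0.00152 and 0.000551, limma). Their means were 4.41-fold, 3.16-fold, 3.42-fold and 3.17-fold higher. The lower ones were Igf1r by −1.26 ± 0.18, Igf2r by −1.32 ± 0.21 and Igfbp5 by −2.48 ± 0.55 (adjusted p = 0.000267, 0.000549 and 0.00312, limma). In G3 against G1 the values ran from −1.65 ± 0.55 for Igfbp5 to 1.94 ± 0.68 for Igfbp2. With only 2 libraries of G1TM, several of these calls rested on 1 of them. Without G1TM replicate 1 the adjusted p rose to 0.159 and 0.124 for Igfbp2, 0.114 and 0.099 for Igfbp4 (G3 and G5), and 0.144 for Igfbp5 in G3. Without G3TM replicate 3 Igfbp2 (0.116), Igfbp4 (0.0554) and Igfbp5 (0.0793) were lost in G3. G5TM against G3TM gave 0 of 10 genes by limma, with 0 at an unadjusted p under 0.05, beside 0.0295% of all tested genes (0.0221% higher and 0.00737% lower).

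Between generations of DM, G3 against G1 gave 0 of 10 genes (limma, 2 at an unadjusted p under 0.05), beside 0.214% of all tested genes (0.184% higher and 0.0295% lower), and G5 against G1 gave 0 (2 at an unadjusted p under 0.05), beside 0.059% (0.00737% higher and 0.0516% lower). The smallest adjusted p in these was Igfbp7 in G3 against G1, at 0.99 ± 0.28 (SE, adjusted p = 0.0989, limma), with both G3DM libraries above both G1DM libraries. Without G5DM replicate 1 it passed (adjusted p = 0.0366), as did Igf1 as lower in G3 than in G1 (−0.84, adjusted p = 0.0116) and as higher in G5 than in G1 (1.08, adjusted p = 0.0186).

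Whether the genotype difference itself changed with generation was tested by the interactions. G3 minus G1 gave 0 of 10 genes (limma, 4 at an unadjusted p under 0.05), beside 2.42% of all tested genes (1.53% higher and 0.885% lower). G5 minus G1 gave 4 of 10, 1 higher and 3 lower, beside 19.8% of all tested genes (11.5% higher and 8.33% lower). Igf1r (−1.29 ± 0.25, SE, adjusted p = 0.007, limma) and Igf2r (−1.54 ± 0.30, adjusted p = 0.00723, limma) had a more negative difference in G5 than in G1 and passed in all 26 alternatives. Igf1 (−1.31 ± 0.38, adjusted p = 0.0316, limma) and Igfbp6 (1.77 ± 0.46, adjusted p = 0.0224, limma) also passed. They were kept in 7 and 9 of the 15 fits that left out a library, with adjusted p up to 0.134 (Igf1, without G1TM replicate 1) and 0.0964 (Igfbp6, without G1DM replicate 1). Without G5DM replicate 1, 7 of the 10 genes passed, and so did 42.4% of all tested genes.

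Differences that cross the division followed gene length. Over all tested genes in G5, the median TM minus DM difference was 0.36 for genes up to 1500 bases, 0.48 for those above that and up to 3000, 0.09 for those above that and up to 6000 and −0.50 above 6000, while in G1 it was −0.01 to 0.03. Within DM, which does not cross the division, the medians also varied with length. For genes of 1500 to 3000 bases and above 6000 they were 0.27 and −0.11 in G3 against G1. In G5 against G3 they were −0.20 and 0.05. The 4 genes of the axis above 6000 bases were Igf1, Igf1r, Igf2r and Igfbp5. The first 3 are those lower in the 6 libraries without overlap, and the shortest gene, Igfbp6, is the one higher in them without overlap. Subtracting the trend of each library on length and GC content left Igf2r at −2.20 ± 0.16 in G5 (SE, adjusted p = 1.34e-06, limma) and Igf1r at −0.67 ± 0.11 (adjusted p = 0.000526, limma). Igf1 became −0.87 ± 0.19 (adjusted p = 0.0028, limma), Igfbp5 −1.47 ± 0.50 (0.0276) and Igfbp3 −1.71 ± 0.32 (0.00105). Igf2 and Igfbp2 then also passed as lower, at −0.92 ± 0.31 (adjusted p = 0.0256, limma) and −1.44 ± 0.53 (0.0395), and Igfbp6 no longer passed. After this step 7 of 10 genes passed in G5, all lower in TM, beside 49.1% of all tested genes, 24.0% lower and 25.1% higher. In G1, where no such trend was seen, Igf2r kept its value and passed (−0.87 ± 0.19, adjusted p = 0.0304, limma). The rises of Igfbp2, Igfbp6 and Igfbp7 within TM from G1 to G5 did not pass after it (0.79, 0.37 and 0.38), and that of Igfbp4 did (1.11, adjusted p = 0.0385). In the interaction, Igf1r (−0.63) and Igf2r (−1.33) passed, and Igf1 (−0.17) and Igfbp6 (0.54) did not. Subtracting it also removes any change in the cells that follows length, and the cause of the trend was not tested.

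**Figure D3:**
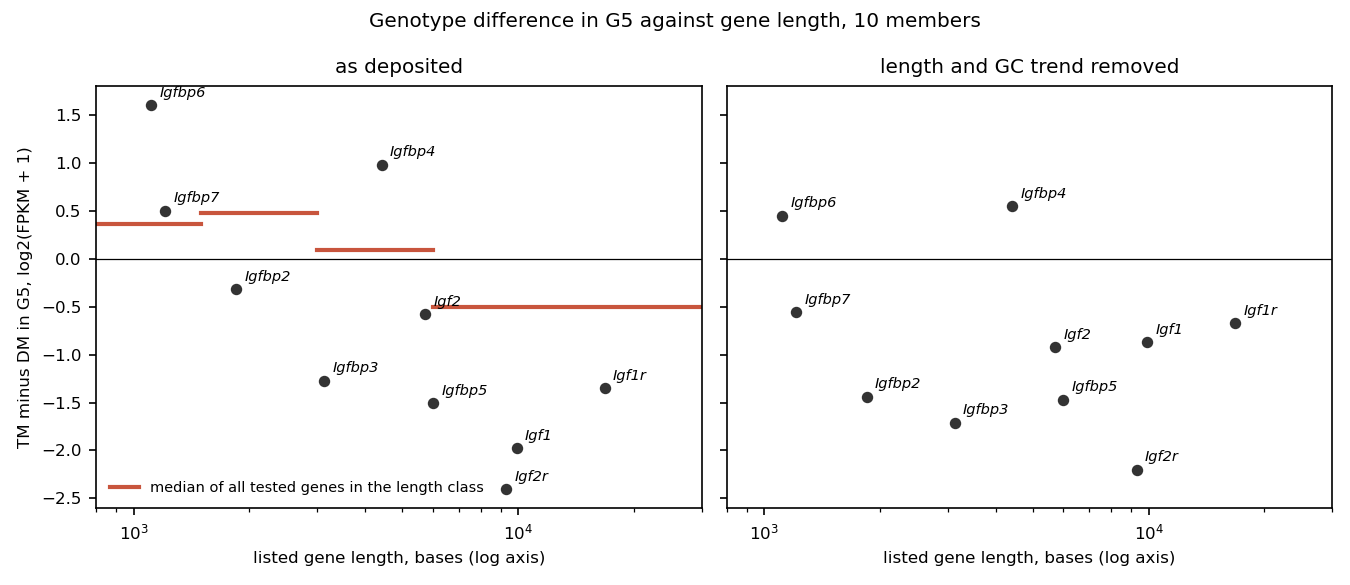
TM minus DM in G5 on the log2(FPKM + 1) scale against listed gene length in bases (log axis) for the 10 genes, as deposited (left, with the median of all tested genes in each length class as red lines) and with the length and GC trend removed (right). Igf2r is the lowest point in both panels (−2.40 and −2.20), and Igfbp6 moves from 1.60 to 0.45.

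The summed FPKM of the 6 binding proteins was 746 and 574 in G1DM, 388 and 389 in G1TM, 897 and 1044 in G3DM, 701 to 909 in G3TM, 536 to 1061 in G5DM and 776 to 1063 in G5TM. Both G1TM libraries lay below all others, which ran from 536 to 1063. Igfbp5 made up 10.9% and 26.4% of the sum in G1DM, 16.7% and 29.9% in G3DM and 27.8% and 33.4% in G1TM, but 3.16% to 6.88% in G3TM and 1.29% to 5.09% in G5TM. G5DM overlapped both sets, at 3.70% to 18.7%. Igfbp6 made up 7.17% to 9.46% in the 7 DM libraries, 12.5% and 12.8% in G1TM and 15.6% to 21.5% in the 6. The share of Igfbp3 was 4.47% to 9.65% in the 9 and 1.93% to 4.34% in the 6. These shares are of transcripts per length and not of protein.

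**Figure D4:**
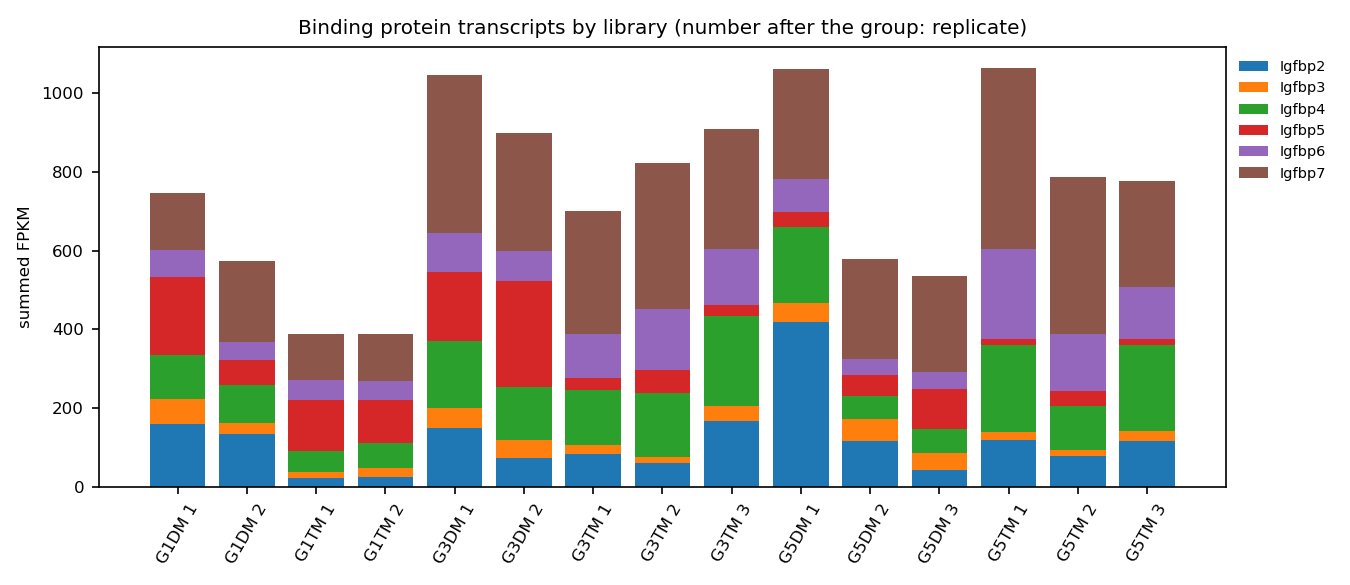
Summed FPKM of the 6 binding protein genes in each library, stacked by gene, with the replicate number after the group. The Igfbp5 segment is thin in G3TM and G5TM (1.29% to 6.88% of the bar) and the 2 G1TM bars are the shortest, at 388 and 389 FPKM.

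Other genes that set how much IGF is free passed in part. Of 8 such genes, 4 were tested, and the liver-type factors Igfbp1 and Igfals were at most 0.0432 and 0.147 FPKM. In G5, 0 of the 4 were higher and 2 lower in TM, with a median of −0.77, beside 30.3% of all tested genes higher and 28.4% lower. Pappa, the protease PAPP-A that cuts IGFBP4, was 7.93 to 33.6 FPKM in DM and 2.37 to 9.45 in TM. It was lower by −2.95 ± 0.26 in G5 (SE, adjusted p = 6.9e-06, limma) and by −1.02 ± 0.30 in G3 (adjusted p = 0.019, limma). Within DM, Pappa was higher in G5 than in G3 by 1.62 ± 0.30 (adjusted p = 0.0189, limma), beside 4.98% of all tested genes passing. With only the groups compared, 0 of all tested genes passed in that comparison, so the Pappa call was lost. Igf1 also passed in it, by a call that rested on single libraries. Stc2, which encodes a stanniocalcin that inhibits PAPP-A, was higher in TM in G1 (1.61 ± 0.35, adjusted p = 0.0462, limma), and, beside 1.17% of all tested genes, 1 of the 4 passed there. Its relative Stc1 was lower in G5 (−1.79 ± 0.31, adjusted p = 0.000492, limma).

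Downstream of the receptors, 27 of 27 signalling genes were tested. In G1, 0 passed, with a median of −0.01. In G3, 2 were higher and 8 lower, with a median of −0.29, and in G5, 5 were higher and 14 lower, with a median of −0.73. Over all tested genes 18.0% were higher and 13.9% lower in G3, and 30.3% higher and 28.4% lower in G5. These counts are from values as deposited, without removal of the length and GC trend. The same holds for the genes of IGF availability, growth hormone input and the Igf2 locus. In G5 the median over all tested genes above 6000 bases was −0.50, and the part of length in these counts was not tested. Among the largest differences in G5 were Rictor, a subunit of mTOR complex 2 (−1.91 ± 0.38, SE, adjusted p = 0.00108, limma), Irs1, the insulin receptor substrate that binds IGF1R (−1.84 ± 0.30, adjusted p = 0.00033, limma), and on the higher side Eif4ebp1, the translation repressor 4E-BP1 (1.89 ± 0.36, adjusted p = 0.000892, limma). Irs1 was 7.85 to 14.8 FPKM in the 9 libraries and 1.35 to 4.90 in the 6, with no overlap, and Eif4ebp1 24.3 to 80.0 against 120 to 224. The 5 higher genes were Akt1, Akt2, Eif4ebp1, Grb2 and Pik3r2, of which all but Eif4ebp1 are named after their values were seen. Of 5 genes of growth hormone input, 1 was higher and 2 lower in G5, the latter being Ghr, the growth hormone receptor (−1.66 ± 0.20, adjusted p = 5.34e-05, limma), and Jak2 (−0.94 ± 0.36, adjusted p = 0.0365, limma).

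Of 7 genes listed for the Igf2 locus and for regulators of the gene or its RNA, 0 were higher and 2 lower in TM in G5, with a median of −0.20. Over all tested genes 30.3% were higher and 28.4% lower. The 2 lower genes were Plag1, a transcription factor that activates Igf2 (−1.07 ± 0.29, SE, adjusted p = 0.00667, limma), and Igf2bp3, which binds Igf2 mRNA (−0.96 ± 0.18, adjusted p = 0.000837, limma). Plag1 stayed below 1 FPKM in every library of G3DM, G3TM and G5TM, so it too met the filter only through groups in which it was high. Igf2 itself did not pass in that comparison. H19 was higher in G3TM and G5TM than in G1TM, by 1.44 ± 0.44 and 1.33 ± 0.44 (adjusted p = 0.0174 and 0.0229, limma), with 1822 to 3138 FPKM in the 6 libraries and 691 to 2193 in the 9. The antisense transcript Igf2os, at 0.679 to 4.11 FPKM, was higher in TM in G3 (0.88 ± 0.30, adjusted p = 0.042, limma), and Igf1os was at most 0.0531 FPKM.

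Across the 15 libraries the levels of several genes of the axis went together or apart, which is a description of libraries that share the division, genotype and length trend. On log2(FPKM + 1), Pearson's r was 0.93 between Igf1r and Igf2r, 0.82 between Igf1 and Igf2r, and 0.84 between Igfbp4 and Igfbp6. It was −0.91 between Igf1r and Igfbp6 and −0.82 between Igf2r and Igfbp6. Igf2 had no r beyond 0.43 with another gene of the axis, and Igfbp2 none beyond 0.66. The gene most like each, among those with a mean of at least 5 FPKM, was mt-Nd5 for Igf1r (r = 0.992), Ccnd2, which encodes cyclin D2, for Igf2r (0.973), Nenf for Igfbp6 (0.991), Tmem43 for Igfbp4 (0.954) and Creb3l2 for Igfbp5 (0.951). It was Gmpr for Igfbp7 (0.925), Trp53inp1, a p53 target, for Igf1 (0.924), Myh11, smooth muscle myosin, for Igfbp3 (0.897), Jph2 for Igfbp2 (0.884) and Dvl3 for Igf2 (0.700).

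Markers of the labelled cell type were present in every group, with a summed level of 12 fibroblast genes of 3120 to 6249 FPKM and none of them at 0 throughout a group. In G5, 6 of the 12 were lower in TM and 0 higher, and in G3, 3 were lower, beside 28.4% of all tested genes lower in G5 and 13.9% in G3. The matrix genes Dcn, Lum and Postn were 0.838 to 1.85, 0.914 to 1.85 and 5.98 to 9.86 FPKM in the 6 libraries and at least 6.74, 5.64 and 11.6 FPKM in the 9, with no overlap, as for Igf1, Igf1r and Igf2r. Over all tested genes 9.63% were lower in the 6 without overlap. Fn1 was also lower there without overlap. S100a4 leaned the other way, at 13.9 to 36.1 FPKM in the 6 against 4.95 to 29.7 in the 9, and the other fibroblast genes overlapped. The summed level of 11 skeletal muscle genes was 27 to 379 FPKM in G3TM and 24.9 to 95.3 in G5TM, beside 29.7 to 182 in the 9. In G3, 6 of 8 tested muscle genes were higher and 1 lower in TM, and in G5, 0 were higher and 1 lower. Beside this and the counts that follow, 18.0% of all tested genes were higher and 13.9% lower in G3, and 30.3% higher and 28.4% lower in G5. Of 9 tested macrophage genes, 1 was higher in TM in G3 and 0 in G5. The summed level of 10 cartilage genes was 77.9 to 197 FPKM in G3TM and 106.5 to 269 in G5TM, beside 26.2 to 161 in the 9, and 5 of 6 tested were higher in TM in G5, beside 30.3% of all tested genes. In G3, 0 of the 6 tested cartilage genes were higher and 1 lower. The summed level of 6 neural genes was 102 to 296 FPKM in the 6 libraries and 41.1 to 103 in the 9. In the 6 libraries most of it was Tubb3, a neuronal tubulin, at 77.1 to 241 FPKM against 12.8 to 40.8 in the 9, with no overlap. In part of the 9, Nes was higher than Tubb3. The other neural genes overlapped. Sox2 leaned higher in the 6 (1.61 to 3.30 against 0.112 to 1.66 FPKM). Map2 (0.175 to 0.393 against 0.140 to 0.835) and Elavl4 (0.0307 to 0.148 against 0.0968 to 0.348) leaned lower. Of the 6 neural genes, 4 were tested, and 2 were higher in TM in G3 and 2 in G5. The summed level of 6 epithelial genes was 19.5 to 75.5 FPKM in the 6 libraries and 3.87 to 48.2 in the 9, and of 3 tested, 0 were higher in G3 and 2 in G5. The part of these cell types in the differences of the axis was not tested.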

How the data were processed

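The analysis used 1 table of FPKM that the authors deposited for polyA RNA-seq of 15 MEF libraries. Tools named in the submitters' processing notes, without roles, are HISAT2 2.0.5 and featureCounts 1.5.0-p3, besides fastp, CASAVA 1.8 and DESeq2 1.20.0. The genome build and the use of strand are not given in the sources used here. FPKM times listed length was a whole multiple of 1 step per library for 100% of values (tolerance 0.05), which gave read numbers. These served for depth and 1 scaling alternative, and the count model was not run on them. Groups came from the sample titles.

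The filter kept genes reaching 1 FPKM in 2 or more libraries. The log2(FPKM + 1) values were fitted with limma 3.58.1 (R 4.3.3) to 6 group means, with an intensity trend and 9 residual degrees of freedom. For each of 12 comparisons, two-sided p-values received Benjamini-Hochberg adjustment over 13562 genes. The fit was tested on simulated data. Differences of genes below a few FPKM are understated by the pseudocount of 1. The 10 genes were all named, and pathway genes by the largest difference among those passing, at most 4 per list; a gene this rule names is not reported here. Genes and lists were chosen with earlier results of these data known. Alternatives changed the pseudocount, filter, scaling, variance model, library weights, samples and replicate block. The estimate of the library weights (array weights) did not reach its convergence tolerance, which limits all results given with array weights. Removal of a length and GC trend (natural splines) and a fit of the 9 libraries outside G3TM and G5TM were added after seeing the data. Tables used Python 3.11.15, numpy 2.4.6, pandas 2.3.3 and scipy 1.17.1, and plots matplotlib 3.10.9.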

Additional observations from a re-analysis of the deposited data

Results flagged for a closer look

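For 4 genes of the axis the TM minus DM difference itself differed between G5 and G1 by the interaction term of the limma fit. It was −1.31 for Igf1, −1.29 for Igf1r, −1.54 for Igf2r and 1.77 for Igfbp6 on the log2(FPKM + 1) scale. G5TM lies on the other side of the division between libraries from G1TM, so generation and division cannot be told apart in these 4 values. With the length and GC trend removed they were −0.17, −0.63, −1.33 and 0.54, of which those of Igf1r and Igf2r passed. No group has 4 libraries, so single libraries were not tested for standing apart from their group.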

How the results depend on the processing

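Of 3150 recomputed values of single genes, 2979 kept their side of the threshold and did not change sign by more than 1 SE. Signs changed in 94 values, 30 of them by more than 1 SE. In 0 of the 94 did the value pass before or after. The cause of the changes below was not tested.

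Genes passing over the fits that left out 1 library numbered 0 to 1 (TM against DM in G1), 0 to 2, 0 to 1 and 0 to 3 (DM: G3 against G1, G5 against G1, G5 against G3), 4 to 8 (TM, G3 against G1), and 0 to 1 and 2 to 7 (interactions, G3 and G5). For TM against DM in G1 the count was 1 with quantile normalization, 2 with array weights, and 1 with only the groups compared or the trend removed. For TM against DM in G3 it was 5 with array weights or the trend removed. Array weights gave 2 for G3 against G1 in DM, 3 for G5 against G3 in DM, and 6 and 8 for the interactions. G5 against G3 in DM gave 0 with only the groups compared, the trend removed, or only the 9 libraries. Without a filter, G3 against G1 in TM gave 4 and the G5 interaction 2, and with the trend removed 3, and 4 for G5 against G1 in TM, and 2 for the G5 interaction. The fit of only the groups compared adds nothing for the mean of generations, which already holds all groups.

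Over all tested genes, calls in TM against DM in G1 numbered 159, and 408 with quantile normalization, 991 with array weights, 37 with only the groups compared, 95 with the replicate block, 429 with the trend removed, 59 in the 9 libraries and 21 to 355 leaving out 1 library. In G3 they numbered 4336, with 9113 (array weights) and 1552 to 5336 (leaving out 1 library). Within DM, G3 against G1 gave 29 and 0 to 2486, G5 against G1 gave 8 and 2 to 132, and G5 against G3 gave 676 and 0 to 3107 over all settings. Within TM, G3 against G1 gave 6350, with 10661 (array weights), 4026 (trend removed) and 1775 to 7392 (leaving out 1 library), G5 against G1 gave 6718 and 2900 to 9073 over all settings, and G5 against G3 gave 4 and 2 to 28. The interactions gave 328 and 80 to 4415 in G3, and 2683 and 429 to 5814 in G5.

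With a replicate block, the counts were 0, 3, 6 and 6 for TM against DM in G1, G3, G5 and the mean, where Igfbp2 was lost (adjusted p = 0.0549), and 3 for the G5 interaction, where Igf1 was lost (adjusted p = 0.0505). No other call changed. The labels do not say that a number pairs samples, and 9 of 33 same-numbered pairs deviated together (r over 0.1, range −0.54 to 0.38), so the numbers were not taken as pairs.

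Signs turned for values that did not pass. With the trend removed, Igf1 in TM became 0.49 (G3 against G1) and 0.53 (G5 against G1), Igf2 −0.18 and Igfbp3 −0.18 (G3 against G1 in TM), Igfbp6 −0.10 (TM against DM in G3) and −0.01 (G3 interaction), and Igfbp7 −0.56 (TM against DM in G5), −0.26 and −0.08 (interactions). With quantile normalization, in G3 against G1 in TM, Igf2 became −0.14 and Igfbp3 −0.09, Igfbp4 −0.30 (mean), and Igfbp7 −0.40 (TM against DM in G5) and −0.01 (G3 interaction). With array weights, Igfbp2 became 0.78 (TM against DM in G5) and −0.77 (G5 against G3 in DM). Leaving out 1 library gave ranges for Igf2 of −0.67 to 0.32 and −0.14 to 0.71 (TM against DM in G1 and G3), and −0.68 to 0.31 and −0.16 to 0.83 (G3 and G5 against G1 in DM). They were −0.18 to 0.13 for Igf1r (G5 against G3 in TM), and for Igfbp2 −1.09 to 0.52 (TM against DM in G5), −1.01 to 0.60 and −0.55 to 1.06 (G5 against G1 and against G3 in DM). For Igfbp3 they were −0.42 to 0.78 and −0.38 to 0.82 (G3 and G5 against G1 in DM), −0.57 to 0.03 (G5 against G3 in TM), and −0.50 to 0.71 and −0.84 to 0.36 (interactions), and for Igfbp5 −0.73 to 0.91 (TM against DM in G1).

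Where leaving out a library left a group with 1, that library was assumed to vary like the others. Groups of 2 or 3 libraries limit what can pass, and Igf1 rests on 37 to 72 reads in the 6 libraries of G3TM and G5TM.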
